A study of Mus musculus with 16 samples.

Results

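The semaphorin, plexin, neuropilin, ephrin, Eph receptor, Slit, netrin and Unc5 genes were chosen by gene symbol, and 41 of the 13015 genes in the table carried such a name. They were 13 semaphorins, 7 plexins, 2 neuropilins, 7 ephrins, 6 Eph receptors, 1 Slit, 3 netrins and 2 Unc5 receptors, and the table held no Robo gene. The mouse annotation has 68 protein-coding genes with such names, and the other 27 were not analysed here. RNA came from NIH/3T3, a line of mouse embryonic fibroblasts, in which Apc was knocked down with an siRNA (siAPC) or a control siRNA was used (siControl). Apc encodes adenomatous polyposis coli, a tumor suppressor that binds microtubules and promotes the destruction of β-catenin. Serum-starved cells spent 2 h on membranes with pores of 3.0 μm, with the attractant lipid lysophosphatidic acid (LPA) below for 1 h, before a 10 min fixation in 0.3% paraformaldehyde. Protrusions (Ps) and cell bodies (CB) were then scraped off apart, which gave 4 groups of 4 libraries: CB and Ps of siControl cells, and CB and Ps of siAPC cells. Both siRNA groups thus shared starvation, LPA and fixation, and no unfractionated cells were part of the comparison.

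Semaphorins, ephrins, netrins and Slits are cues that cells present or secrete, and plexins, neuropilins, Eph receptors, Unc5 proteins and Robo proteins are the receptors that read them. Most of the receptors steer movement through small GTPases and the actin cytoskeleton, and ephrins can also signal back into the cell that carries them. They were named for the guidance of growing axons, but fibroblasts use the same molecules in adhesion, repulsion on contact and migration. Nearly all of these proteins are secreted or sit in the plasma membrane, so their mRNAs are translated at the endoplasmic reticulum.

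Apc itself was measured first. Its log2 CPM (its share of the reads of a library on a log scale, after the authors' own scaling of libraries) was 2.13, 2.59, 3.54 and 2.17 in siControl CB and 0.54, 1.42, 1.02 and 0.75 in siAPC CB. In Ps it was 3.52, 3.73, 3.29 and 3.56 in siControl and 1.63, 1.90, 1.87 and 1.33 in siAPC. The siRNA groups did not overlap in either fraction, and Apc fell by 1.67 (SE 0.25, limma adjusted p = 0.000142) in CB and by 1.84 (SE 0.25, limma adjusted p = 3.11e-05) in Ps on the log2 scale. Reads in listed genes ran from 13466225 to 20296087 per library, and 3 reads, taken as the detection floor, correspond to a log2 CPM of -2.73 to -1.80 depending on the library. All 9 fibroblast markers were listed, whereas the table held 2 of 5 epithelial, 1 of 5 neuronal, 1 of 5 endothelial and 2 of 4 immune markers. Being listed did not mean being abundant. The mean log2 CPM of single fibroblast markers ran from -1.74, near the floor, to 13.08. The highest listed epithelial marker was at 2.83 and the neuronal one at 2.95. Fibroblast markers summed to 37200 to 40600 CPM in siControl CB, 22600 to 24800 in siControl Ps, 47400 to 52500 in siAPC CB and 27600 to 30100 in siAPC Ps. Each of these other lists summed to at most 10.7 CPM in any library. In 4 libraries (siControl CB replicate 3, siControl Ps replicate 2, siAPC CB replicate 2 and siAPC Ps replicate 2) the level relative to the group mean was lower for genes of higher GC content (Spearman correlations of -0.523 to -0.645 across 10234 genes, which are not independent replicates), and in 5 others it was higher for such genes (0.433 to 0.536). As these were bulk samples of fractions, a lower value can come from less RNA of a gene per cell or from fewer cells that contain it, and these cannot be told apart.

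The sequences upstream of 3 members are shown because these genes changed with siAPC in both fractions: Ntn5 with the largest rise, Slit2 as the other secreted cue that rose in both, and Nrp2 as a receptor that fell in both. Plxna3, not shown, also fell in both, with separate groups. The Nrp2 groups overlapped in Ps. With scaling to total listed reads Nrp2 was called in neither fraction, and Plxna3 was not called in Ps. They are RefSeq sequences of build GRCm38.p6 on the + strand, 5′ to 3′, from 250 bases before the RefSeq start to the first annotated start. Capitals mark CTTTGAT, a form of the motif bound by TCF and LEF, the DNA-binding partners of β-catenin, or TATAAA, the TATA box.
Ntn5, chr7:45683772-45684021: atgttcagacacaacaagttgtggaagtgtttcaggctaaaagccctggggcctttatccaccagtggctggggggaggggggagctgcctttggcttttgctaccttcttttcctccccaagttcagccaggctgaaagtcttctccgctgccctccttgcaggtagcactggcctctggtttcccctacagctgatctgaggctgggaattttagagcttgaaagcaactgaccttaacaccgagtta
Slit2, chr5:47982905-47983137: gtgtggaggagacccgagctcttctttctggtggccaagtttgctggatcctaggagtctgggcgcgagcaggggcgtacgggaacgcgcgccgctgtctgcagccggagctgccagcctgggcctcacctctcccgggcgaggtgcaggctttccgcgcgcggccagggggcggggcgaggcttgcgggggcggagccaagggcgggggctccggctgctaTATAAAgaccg
Nrp2, chr1:62703067-62703284: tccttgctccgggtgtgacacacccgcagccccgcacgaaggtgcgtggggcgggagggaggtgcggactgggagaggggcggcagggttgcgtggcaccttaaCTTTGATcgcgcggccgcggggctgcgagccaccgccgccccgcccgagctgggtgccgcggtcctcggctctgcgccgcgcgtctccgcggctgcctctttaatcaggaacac
CTTTGAT began 146 bases before the RefSeq start of Nrp2, and TATAAA began 28 bases before that of Slit2. RefSeq windows of 250 bases matched 36 of the 41 members. Searched on both strands, CTTTGAT was in a window of 1 member, Nrp2, and in 3.21% of all 32851 windows, and TATAAA was in those of 2 members, Slit2 and Efnb2, and in 12.4% of all. The Ntn5 stretch held 2 CpG sites at a GC content of 52.8%, against 23 sites at 70.4% for Slit2 and 28 sites at 72.5% for Nrp2. Over all windows the median was 6 CpG sites, and 37.8% had 3 or fewer. A match describes these letters only.

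The levels of the members were compared per length, as RPKM (reads per kilobase of exon, scaled like the CPM), in control cell bodies. Plxnb2, a plexin that binds class 4 semaphorins, was the highest of all at 81.1 ± 6.17 (SD, n = 4), followed by Plxna1 at 35.7 ± 3.22, Ephb4 at 24.5 ± 0.814, Sema3f at 21.8 ± 2.08, Plxnd1 at 20.5 ± 2.14 and Efna1 at 19.3 ± 2.94. The libraries of Plxnb2 and Plxna1 did not overlap with each other or with the genes below them, but Sema3f, Plxnd1 and Efna1 lay within each other's spread. Nrp2, a co-receptor of class 3 semaphorins, stood at 12.5 ± 0.564 and its relative Nrp1 at 0.497 ± 0.141 on the same scale. Unc5b, a netrin receptor, was the higher Unc5 gene at 6.64 ± 0.758, Efnb1 led the transmembrane ephrins at 4.41 ± 0.414, Ntn3 the netrins at 2.68 ± 0.327, Epha2 the EphA receptors at 2.48 ± 1.38, and Slit2 stood at 0.355 ± 0.049. At the low end, Unc5c had 0 to 7 reads per control cell body library and an RPKM of 0.00934 ± 0.00676. In all, 31 members had a mean log2 CPM of at least 1, and 7 had 3 or fewer reads in some library. The Ntn3 model shares exon sequence with Tbc1d24 on its own strand, so the netrin's own level is uncertain.

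**Figure D1:**
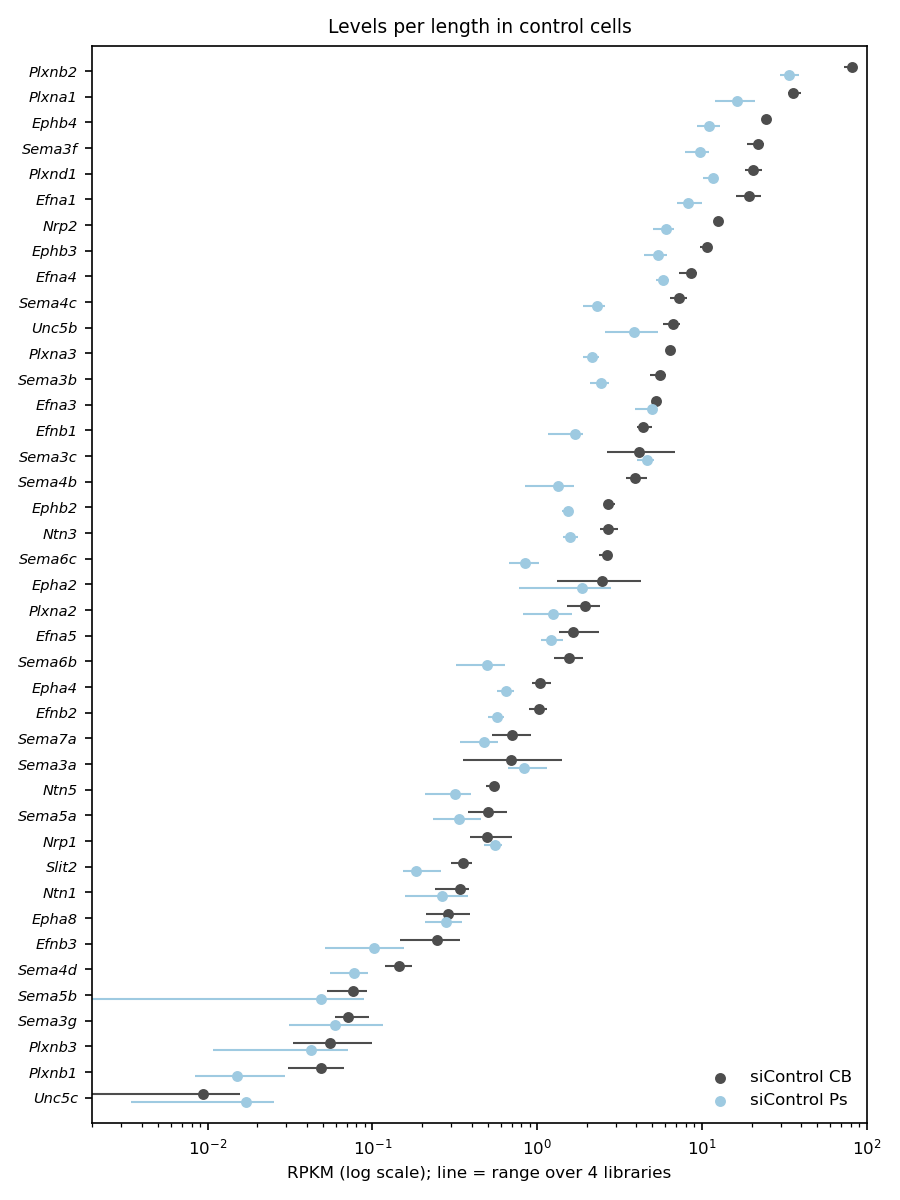
Level of each of the 41 guidance genes in siControl CB (dark) and siControl Ps (light), in RPKM on a log axis, with points at the mean and lines from the lowest to the highest of 4 libraries. Genes are ordered by their CB level from Plxnb2 at 81.1 down to Unc5c at 0.00934, and a line that reaches the left edge includes a library with 0 reads.

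The Ps/CB ratio asked whether guidance mRNAs were richer in protrusions or in cell bodies. In control cells 29 of 41 members (70.7%) were lower in Ps at a limma adjusted p below 0.05, against 31.2% of all genes, and 0 were higher, against 29.1% of all genes. Without adjustment 0 members were higher at p below 0.05, and limma with voom weights also called 0. The 0 rested on single libraries. Without replicate 3 of siControl CB, Sema3a (0.88, limma adjusted p = 0.0132), Sema3c (0.54, limma adjusted p = 0.0112) and Nrp1 (0.37, limma adjusted p = 0.03) were called higher, and without replicate 3 of siControl Ps the scarce Unc5c was (1.60, limma adjusted p = 0.0399). The median log2 fold change of the members was -0.83 and that of all genes 0. In 25 of the 29 the Ps and CB libraries did not overlap, a share close to the 83.3% among all genes called lower. By the rule of the study (FC above 2 with an unadjusted p below 0.05) 16 members were CB-enriched, against 6.82% of all genes, and 0 were Ps-enriched, against 7.19%. Ligands and receptors showed similar shares, with 17 of 24 ligands and 12 of 17 receptors lower in Ps.

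GC content moved with this result. The members had a median GC content of 56.8% against 50.1% for all genes, and the Ps/CB log2 fold change fell with GC content both among the 41 members (Spearman correlation -0.431) and among 12872 annotated genes (correlation -0.335), as a description across genes of the same libraries. After a loess correction on GC content and transcript length, 21 members (51.2%) were lower in Ps, against 26.0% of all genes. The median was -0.48 against 0.02 for all genes. By the rule of the study 3 members (7.32%) were then CB-enriched, against 4.23% of all genes, a small difference on few genes. With a fold change of 1.5 in the rule there were 15 (36.6%), against 12.7% of all genes. The part of GC content in the result was not tested. Epha8 became the 1 member higher in Ps. The correction ended the calls of Unc5b, Ntn3, Plxna2, Plxnb1, Plxnd1, Efnb3, Sema4d and Sema5a and added none that was lower. Leaving out the 4 libraries with a negative GC trend gave 27 (65.9%), against 31.6% of all genes, with a median of -0.83. That trend was measured within each group, and the 5 libraries with a positive trend stayed in. This refit therefore cannot address a GC difference between Ps and CB. Nuclear RNAs also differed between the fractions: 3 listed ones (Malat1, Neat1 and Kcnq1ot1) summed to 644 to 897 CPM in siControl CB and to 127 to 309 CPM in siControl Ps. Their part in the result was not tested.

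**Figure D2:**
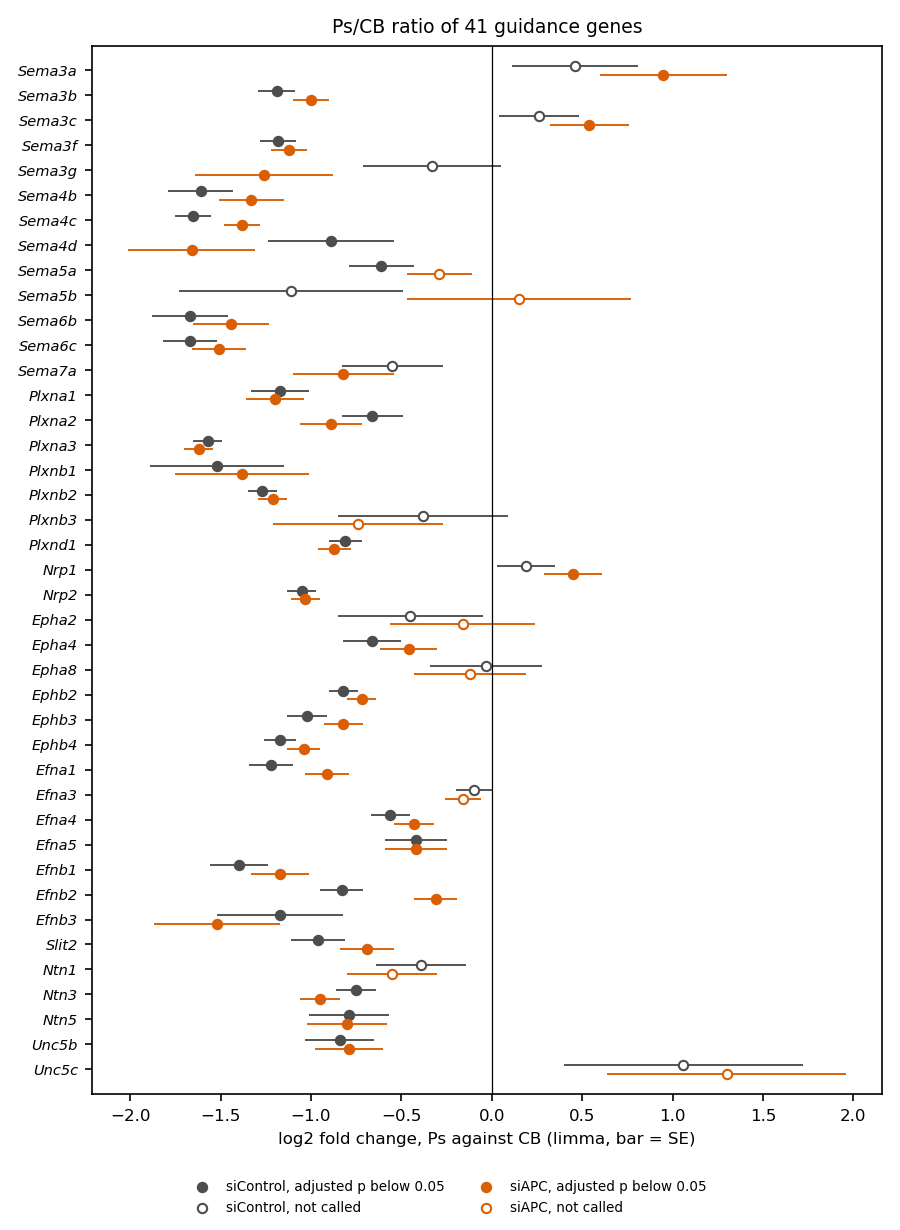
Ps/CB log2 fold change of the 41 members in siControl (dark) and siAPC (orange), with bars for the SE from limma and filled points for an adjusted p below 0.05. Most points lie left of 0, with 29 filled in siControl and 30 filled in siAPC on that side, and Sema3a, Sema3c and Nrp1 are filled on the right in siAPC.

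Among semaphorins, the transmembrane members Sema6b, Sema6c, Sema4c and Sema4b had the lowest ratios. Sema6b, a ligand of class A plexins, was at log2 CPM 2.46, 2.33, 2.76 and 2.92 in siControl CB and at 0.41, 0.67, 1.34 and 1.36 in siControl Ps, a log2 fold change of -1.67 (SE 0.21, limma adjusted p = 1.56e-06). Sema6c was at 4.06, 4.05, 3.81 and 4.02 in CB and at 2.16, 2.02, 2.46 and 2.62 in Ps, again -1.67 (SE 0.15, limma adjusted p = 1.78e-08). In both genes every Ps library lay below every CB library. Sema4c, a Plxnb2 ligand, went from 5.23, 5.06, 4.88 and 5.03 to 3.45, 3.14, 3.43 and 3.57 (-1.65, SE 0.10, limma adjusted p = 8.7e-11), and Sema4b from 4.47, 4.28, 4.42 and 4.72 to 2.26, 2.75, 3.25 and 3.20 (-1.61, SE 0.18, limma adjusted p = 3.07e-07). These were again separated without overlap, and the Ps level was 31.8% of the CB level for Sema4c and 32.9% for Sema4b. Of the other class 4 to 7 members, Sema4d, at a mean of 0.19 in CB, fell by 0.89, and Sema5a, from 3.63, 3.33, 3.06 and 2.84 in CB to 2.85, 3.11, 2.33 and 2.14 in Ps, fell by 0.61 (SE 0.18, limma adjusted p = 0.00772) with overlapping groups. After the loess for GC content and length neither was called, at -0.48 (limma adjusted p = 0.277) for Sema4d and -0.46 (limma adjusted p = 0.0624) for Sema5a. The median of the 8 class 4 to 7 members went from -1.36 to -0.69 with this correction. The call of Sema4d (limma adjusted p = 0.0366) was lost in 7 of 25 alternatives, among them leaving out replicate 1, 2 or 3 of siControl CB or replicate 1 or 4 of siControl Ps, with values of -0.90 to -0.74 in these. Sema5b (mean -0.86 in CB) and Sema7a (mean 1.20), a semaphorin held by a lipid anchor, were not called, with log2 fold changes of -1.11 and -0.55.

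The secreted class 3 semaphorins, which act through neuropilins and class A plexins, had 2 of 5 genes lower in Ps and 3 not called. Sema3f, the highest semaphorin per length, went from 6.95, 6.82, 6.62 and 6.89 in siControl CB to 5.59, 5.35, 5.78 and 5.84 in Ps (-1.18, SE 0.10, limma adjusted p = 4.69e-09). Sema3b, at a mean of 4.73 in CB, had -1.19 (SE 0.10, limma adjusted p = 8.15e-09), and both genes had separate groups. Sema3a was at 2.69, 2.91, 4.29 and 2.30 in CB and 3.54, 3.98, 3.20 and 3.32 in Ps, with a log2 fold change of 0.46 (SE 0.35, limma adjusted p = 0.268) that did not pass the test. In replicate 3 of siControl CB, one of the libraries with a negative GC trend, Sema3a was the highest of all CB and Ps libraries of siControl, and the groups overlapped through it alone. Sema3c gave 0.26 (SE 0.22) and was not called either, at 4.43, 4.25, 5.61 and 4.86 in CB, and the scarce Sema3g, at 5 to 10 reads per CB library, gave -0.33.

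Plexins, the main semaphorin receptors, were lower in Ps with 6 of 7 genes called. Plxna3 was the lowest of those with a mean log2 CPM of at least 1, from 5.66, 5.65, 5.59 and 5.71 in siControl CB to 4.05, 3.90, 4.24 and 4.15 in Ps (-1.57, SE 0.08, limma adjusted p = 1.9e-11). The abundant Plxnb2 went from 9.39, 9.35, 9.13 and 9.28 to 7.92, 7.85, 8.22 and 8.08 (-1.27, SE 0.08, limma adjusted p = 2.25e-10). All Ps libraries of both receptors lay below all CB libraries. Plxna1 (mean 8.33 in CB) had -1.17, Plxnd1 (mean 7.22), the receptor of Sema3e in blood vessels, -0.81, Plxna2 (mean 5.03) -0.66 with overlapping groups, and Plxnb1 -1.52 on 5 to 12 reads per CB library and 1 to 4 reads per Ps library. Plxnb3, at 5 to 11 reads in CB, was the plexin that was not called. With the loess for GC content and length Plxnd1 stood at 0.01, so its direction depended on that correction, and Plxna2 at -0.28 (limma adjusted p = 0.0838) and Plxnb1 at -0.78 (limma adjusted p = 0.07) were no longer called. The median of the 7 plexins went from -1.17 to -0.44 with this correction, and 3 were still called lower.

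Of the 2 neuropilins, Nrp2 was called and Nrp1 was not. Nrp2 went from 7.17, 7.13, 7.25 and 7.27 in siControl CB to 5.91, 6.08, 6.30 and 6.33 in Ps (-1.05, SE 0.08, limma adjusted p = 1.18e-09), without overlap. Nrp1 was at 2.09, 1.95, 2.79 and 2.19 in CB and at 2.48, 2.46, 2.59 and 2.23 in Ps, a log2 fold change of 0.19 (SE 0.16, limma adjusted p = 0.337) with overlapping groups.

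All 3 EphB receptors, which bind transmembrane ephrins, fell in Ps, and 1 of 3 EphA receptors, which bind lipid-anchored ephrins, did. Ephb4 went from 6.88, 6.83, 6.77 and 6.84 to 5.44, 5.49, 5.90 and 5.82 (-1.17, SE 0.09, limma adjusted p = 1.64e-09), Ephb3 (mean 6.17 in CB) by -1.02 and Ephb2 (mean 5.09 in CB) by -0.82. Epha4, which binds both kinds of ephrin, went from 3.03, 3.01, 3.29 and 2.90 to 2.44, 2.55, 2.22 and 2.37 (-0.66, SE 0.16, limma adjusted p = 0.00153). In these 4 genes the fractions were separate. After the loess for GC content and length the median of the 3 EphB receptors was -0.42, against -1.02 before it, with all 3 still called. Epha2 was spread widely within each fraction, at 2.64, 2.78, 3.75 and 4.32 in CB and 1.87, 2.40, 3.68 and 3.71 in Ps. Its log2 fold change of -0.45 (SE 0.40, limma adjusted p = 0.336) was not called. Epha8, at 17 to 34 reads per CB library, had -0.03, and after the loess for GC content and length it was called higher in Ps, at 0.71 (limma adjusted p = 0.0305) in siControl and 0.66 (limma adjusted p = 0.0481) in siAPC.

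Among ephrins, 6 of 7 were lower in Ps. Efnb1 went from 3.91, 4.11, 3.81 and 3.88 in siControl CB to 2.71, 2.02, 2.67 and 2.70 in Ps (-1.40, SE 0.16, limma adjusted p = 4.8e-07), and Efna1, a ligand of Epha2, from 5.20, 5.39, 4.87 and 5.06 to 3.93, 4.20, 3.70 and 3.82 (-1.22, SE 0.12, limma adjusted p = 3.78e-08). Both were separated between fractions. Efnb2 (mean 2.80 in CB) had -0.83 and Efnb3, at 8 to 20 reads in CB, -1.17, which became -0.71 (limma adjusted p = 0.0825) after the loess. Smaller changes were those of Efna4, from 3.90, 3.89, 3.53 and 3.81 to 3.35, 3.20, 3.25 and 3.08 (-0.56, SE 0.11, limma adjusted p = 0.00021), and Efna5, from 2.46, 2.46, 3.27 and 2.65 to 2.10, 2.38, 2.15 and 2.54 (-0.42, SE 0.17, limma adjusted p = 0.0374), where the groups overlapped. The call of Efna5 was lost in 6 of 26 alternatives, among them leaving out replicate 3 (-0.23, limma adjusted p = 0.159) or replicate 4 of siControl CB or replicate 1 or 3 of siControl Ps. Efna3 was the ephrin that was not called, at 3.76, 3.77, 3.60 and 3.62 in CB and 3.71, 3.25, 3.68 and 3.69 in Ps, with a log2 fold change of -0.10 (95% confidence interval -0.31 to 0.11).

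Of the Slit, netrin and Unc5 genes, Slit2, a secreted repellent, went from 2.93, 3.31, 3.36 and 3.07 in siControl CB to 1.99, 2.74, 1.97 and 2.14 in Ps (-0.96, SE 0.15, limma adjusted p = 2.65e-05). Unc5b went from 5.18, 5.29, 5.48 and 5.53 to 4.01, 4.22, 5.09 and 4.82 (-0.84, SE 0.19, limma adjusted p = 0.000764) and Ntn3 from 3.85, 3.98, 3.64 and 3.62 to 2.91, 2.89, 3.18 and 3.11 (-0.75, SE 0.11, limma adjusted p = 1.26e-05). None of these 3 overlapped between fractions, and Tbc1d24, which shares exon sequence with Ntn3, had -1.20. The loess for GC content and length ended the calls of Unc5b, at -0.14 (limma adjusted p = 0.437), and Ntn3, at -0.04 (limma adjusted p = 0.8). Ntn5 had -0.79 (SE 0.22, limma adjusted p = 0.00402) on 21 to 25 reads in CB and 7 to 11 reads in Ps, a call lost with voom weights (limma adjusted p = 0.0828). Ntn1, the founding netrin (mean 1.09 in CB), and Unc5c were not called, and Unc5c had the highest log2 fold change of any member at 1.06 (SE 0.66, limma adjusted p = 0.178) on at most 7 reads in a control library. Of the alternatives run, it passed only without replicate 3 of siControl Ps.

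In siAPC cells 30 members (73.2%) were lower in Ps, against 30.9% of all genes, and 3 were higher (7.32%), against 29.8% of all genes. The median was -0.82 for the members and 0.01 for all genes. By the rule of the study 15 members were CB-enriched, against 5.05% of all genes, and 0 were Ps-enriched, against 7.67%. With the loess for GC content and length 21 members (51.2%) were lower in Ps, against 25.0% of all genes. As CB-enriched there were 2 (4.88%), against 2.91% of all genes, and 12 (29.3%) at a fold change of 1.5, against 10.3%. This correction ended the calls of Ephb2, Efnb2, Ntn3, Ntn5, Unc5b, Plxnb1, Plxnd1, Sema3g and Sema7a among the genes lower in Ps. Leaving out single siAPC libraries also ended calls of Efnb2, Efna5, Epha4 and Sema7a. Ntn1 (-0.55, limma adjusted p = 0.0181) and Sema5a (-0.29, limma adjusted p = 0.0345) were also lower when replicate number was a block. Without the block, 28 were lower in Ps with both siRNAs, Sema5a was called in siControl but not in siAPC, and Sema3g and Sema7a in siAPC but not in siControl, without this being a test of the difference.

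The 3 members higher in Ps of siAPC cells were the secreted semaphorins Sema3a and Sema3c and the neuropilin Nrp1. Sema3a was at 2.66, 3.36, 1.84 and 2.38 in siAPC CB and 3.49, 4.12, 3.23 and 3.20 in siAPC Ps (0.95, SE 0.35, limma adjusted p = 0.0251). Sema3c was at 4.94, 5.41, 4.89 and 4.98 in CB and 5.60, 6.08, 5.36 and 5.33 in Ps (0.54, SE 0.22, limma adjusted p = 0.0422). Nrp1 was at 2.82, 2.96, 2.63 and 2.72 in CB and 3.22, 3.57, 3.11 and 3.02 in Ps (0.45, SE 0.16, limma adjusted p = 0.0251). Nrp1 was separated between fractions, the semaphorins overlapped through replicate 2 of CB, and all 3 genes were higher in Ps in 4 of 4 same-numbered pairs. These calls were fragile. With scaling to total listed reads, which shifted the median of all genes to -0.14 in this comparison, 0 members were higher. Leaving out replicate 3 or replicate 4 of siAPC CB, or replicate 2 of siAPC Ps, ended the call of all 3 genes, as did the loess, with 0.54 for Sema3a, 0.25 for Sema3c and 0.02 for Nrp1. The same 3 genes were called higher in siControl once replicate 3 of siControl CB was left out, so no difference between the siRNAs follows from these calls. Unc5c had a higher value in siAPC, 1.30 (SE 0.66, limma adjusted p = 0.0969), without overlap but not called, on 4 to 6 reads in CB and 9 to 20 in Ps. It passed with voom weights (limma adjusted p = 0.0446), a larger pseudocount (limma adjusted p = 0.00842) and only the groups compared (limma adjusted p = 0.00811). Without replicate 4 of siControl CB it passed too (limma adjusted p = 0.0249).

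The difference between the ratios, log2(Diff FC) = log2(FC in siAPC) minus log2(FC in siControl), asked whether the placement of guidance mRNAs changed with Apc. By limma 0 members had a higher value, against 0.0% of all genes, and 0 a lower one, against 0.0231% of all genes, at an adjusted p below 0.05. The median was 0.13 for the members and 0 for all genes, with 26 values above 0 and 15 below. Scaling to total listed reads, which moved the median of all genes to 0.15, moved that of the members to 0.27. At an unadjusted p below 0.05 there was 1 of 41 members, beside 3.78% of all genes, and there were 2 members (4.78% of all genes) under quantile normalization, 3 (5.26%) with the replicate block, 3 (6.27%) without the 4 libraries with a negative GC trend, 4 (6.46%) after the loess and 5 (10.6%) with scaling to total listed reads. These shares lay near the background throughout. The 1 member was Efnb2, a transmembrane ephrin and partner of Ephb4, and limma with voom weights called 0 at an adjusted p below 0.05. Efnb2 was at 2.98, 2.62, 2.85 and 2.76 in siControl CB, 2.02, 2.13, 1.95 and 1.80 in siControl Ps, 2.64, 2.50, 2.44 and 2.30 in siAPC CB and 2.06, 2.27, 2.25 and 2.06 in siAPC Ps. The Ps/CB value went from -0.83 in siControl to -0.31 in siAPC, a log2(Diff FC) of 0.52 (95% confidence interval 0.15 to 0.88, limma adjusted p = 0.981). In siAPC its Ps call (limma adjusted p = 0.037) did not hold with replicate number as a block, with a limma adjusted p = 0.0505. The widest intervals belonged to scarce genes, from -1.72 to 2.21 for Unc5c and from -0.57 to 3.10 for Sema5b, and at this depth a change of this size was not detectable in them.

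The level of the guidance genes in siAPC against siControl was compared within each fraction. In CB 7 members (17.1%) rose, against 7.52% of all genes, and 2 (4.88%) fell, against 5.87%. In Ps 12 members (29.3%) rose, against 10.7% of all genes, and 3 (7.32%) fell, against 11.2%. The median log2 fold change of the members was 0.16 in CB and 0.26 in Ps, and that of all genes -0.04 and -0.02. Both comparisons together called 17 members, and 24 were called in neither. Scaling to total listed reads moved the median of all genes in Ps to 0.14, and then 19 members (46.3%) rose and 0 fell in Ps, against 22.6% and 4.23% of all genes. The 3 falls thus depended on the scaling between libraries, and the share that rose grew among all genes too. Other RNAs also moved with siAPC. The listed nuclear RNAs summed to 644 to 897 CPM in siControl CB and to 423 to 574 in siAPC CB. In Ps they summed to 127 to 309 CPM in siControl and to 105 to 239 in siAPC. The fibroblast marker sums given earlier were higher with siAPC in each fraction, without overlap. Whether these shifts bear on the counts of members was not tested.

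**Figure D3:**
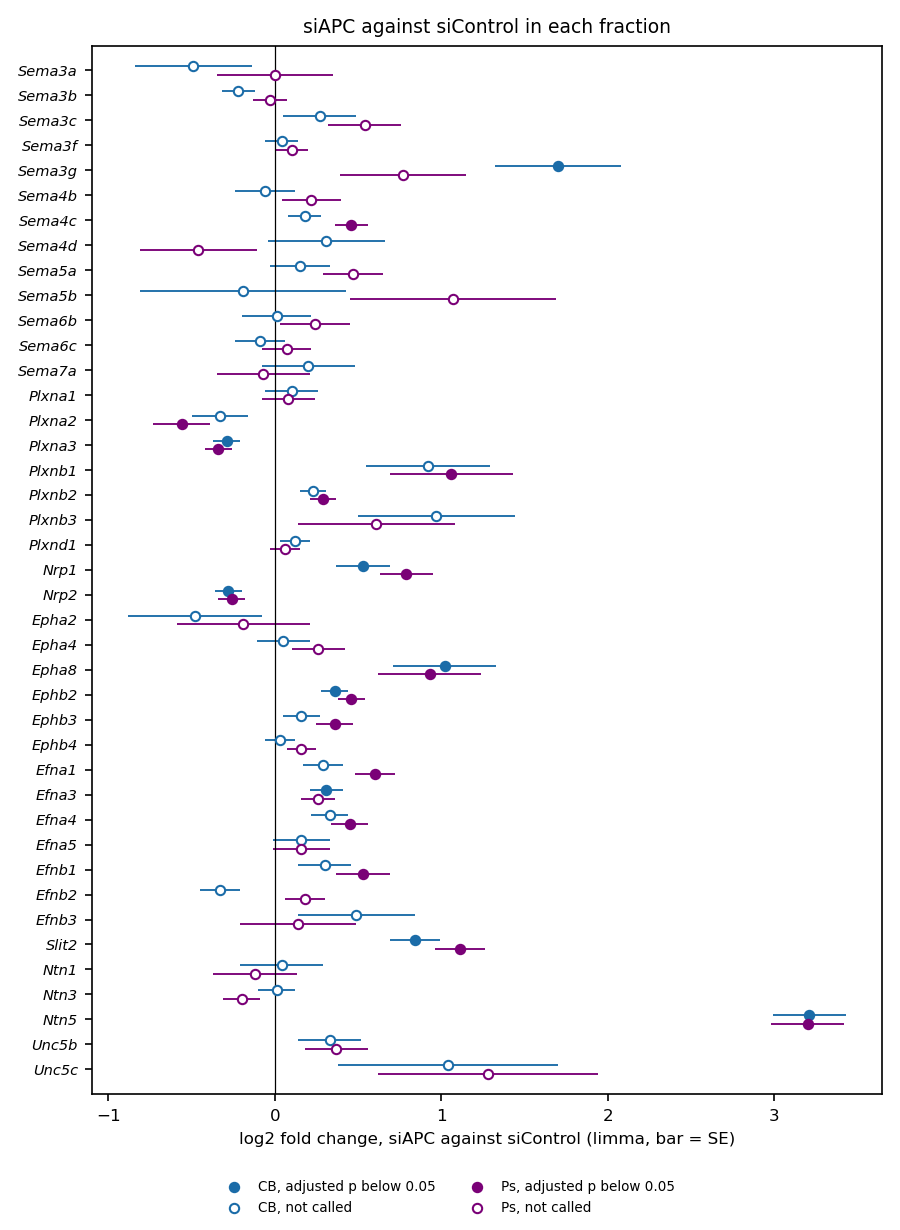
Log2 fold change of the 41 members in siAPC against siControl within CB (blue) and within Ps (purple), with bars for the SE from limma and filled points for an adjusted p below 0.05. Ntn5 stands apart at 3.21 in CB and 3.20 in Ps, followed among genes called in both fractions by Slit2 and Epha8, while Nrp2 and Plxna3 lie left of 0 in both.

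Epha8, Ephb2, Nrp1, Ntn5 and Slit2 rose in both fractions. Ntn5, a little-studied relative of the netrins, was at 0.36, 0.40, 0.14 and 0.34 in siControl CB and at 3.37, 3.36, 3.80 and 3.57 in siAPC CB. In Ps it was at -0.11, -0.22, -1.02 and -0.58 in siControl and at 2.54, 2.20, 3.09 and 3.03 in siAPC. The siRNA groups were far apart in both fractions, and the change was 9.27-fold in CB (log2 3.21, SE 0.22, limma adjusted p = 5.49e-09) and 9.19-fold in Ps (log2 3.20, SE 0.22, limma adjusted p = 4.8e-09). In reads this was 21, 22, 25 and 23 against 223, 200, 270 and 208 in CB, and 11, 10, 7 and 9 against 91, 68, 162 and 134 in Ps. Exons of Ntn5 (chromosome 7, 45684022 to 45694556, + strand) overlap those of Sec1, a fucosyltransferase gene on the other strand, and although the library kit kept the strand of each RNA, it is not given in the sources used here whether reads were counted by strand. Sec1 also rose, by 0.77 (SE 0.19, limma adjusted p = 0.00855) in CB and 0.71 (SE 0.19, limma adjusted p = 0.0101) in Ps, from a mean log2 CPM of 2.25 to 3.03 in CB and from 1.62 to 2.33 in Ps. The mean of Ntn5 went from 0.31 to 3.52 in CB and from -0.48 to 2.72 in Ps. Log2 CPM is not scaled for length, so the levels of Ntn5 and Sec1 are not compared here. Whether reads of Sec1 were counted for Ntn5 was not tested.

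Slit2 was at 3.93, 3.95, 4.08 and 4.07 in siAPC CB, above all 4 siControl CB libraries given earlier (0.84, SE 0.15, limma adjusted p = 0.00095). In Ps it was at 3.06, 3.55, 3.40 and 3.26 in siAPC, again above all siControl libraries (1.11, SE 0.15, limma adjusted p = 3.52e-05). Its Robo receptors were not among the listed genes.

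Nrp1 rose by 0.53 in CB (SE 0.16, limma adjusted p = 0.0386) and by 0.79 in Ps (SE 0.16, limma adjusted p = 0.00179). The Ps groups were separate, but in CB replicate 3 of siControl, at 2.79, lay among the siAPC libraries. The CB call was the weaker one and was lost in 11 of 26 alternatives, whereas the Ps call was kept in all 26. Nrp2 moved the other way: it was at 6.95, 6.90, 6.99 and 6.87 in siAPC CB and at 5.91, 5.93, 5.92 and 5.83 in siAPC Ps, a fall by 0.28 in CB (SE 0.08, limma adjusted p = 0.0199) and by 0.26 in Ps (SE 0.08, limma adjusted p = 0.0208). The CB groups did not overlap, the Ps groups did, and scaling to total listed reads gave -0.26 (limma adjusted p = 0.0984) in CB and -0.09 (limma adjusted p = 0.536) in Ps.

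**Figure D4:**
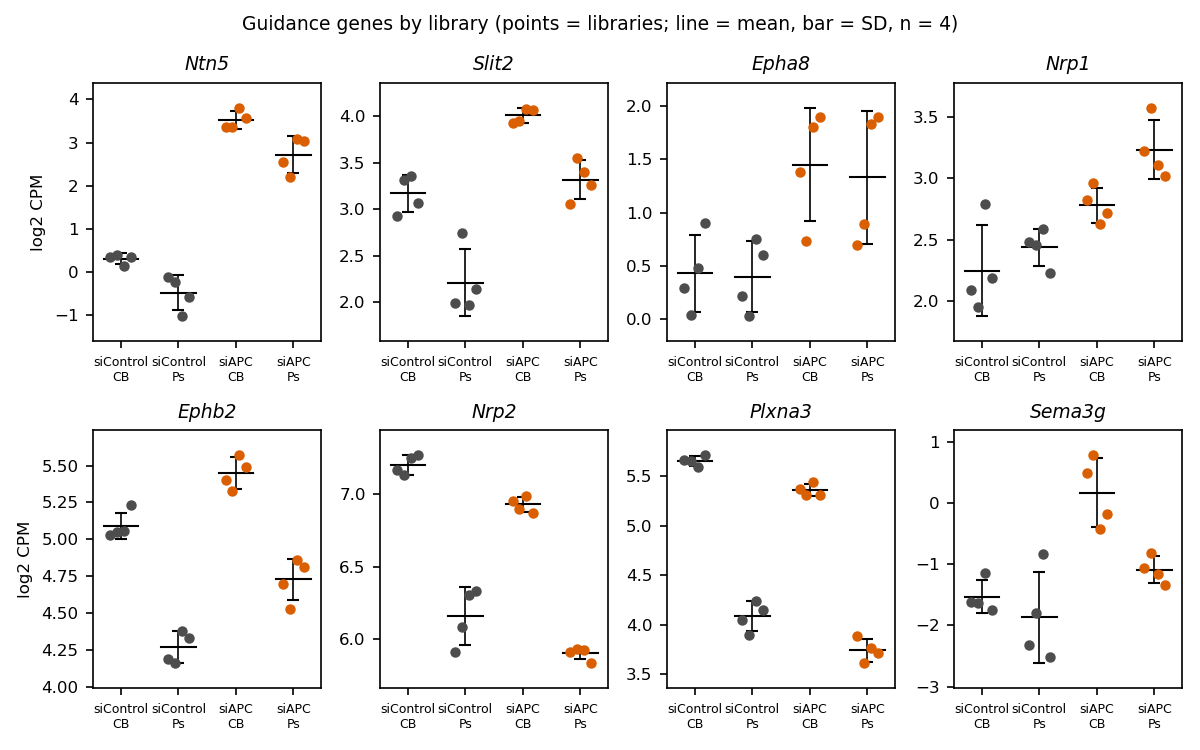
Log2 CPM of 8 members in each library of the 4 groups, with lines at the mean and bars for the SD (n = 4). Ntn5 and Slit2 are higher in all siAPC libraries of a fraction than in its siControl libraries, Plxna3 is lower, and Epha8 overlaps between siRNAs.

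Ephb2 was at 5.03, 5.05, 5.06 and 5.23 in siControl CB and at 5.40, 5.33, 5.57 and 5.49 in siAPC CB (0.36, SE 0.08, limma adjusted p = 0.00644). In Ps it was at 4.19, 4.16, 4.38 and 4.33 in siControl and at 4.70, 4.53, 4.86 and 4.81 in siAPC (0.46, SE 0.08, limma adjusted p = 0.000536). Neither pair of groups overlapped, and both calls were kept in all 26 alternatives. Ephb3, which like Ephb2 is known as a target of β-catenin and TCF in intestinal cells, was called in Ps, from 5.01, 4.88, 5.34 and 5.36 to 5.52, 5.27, 5.66 and 5.56 (0.36, SE 0.11, limma adjusted p = 0.0222), with overlapping groups, and gave 0.16 (SE 0.11) in CB. The Ps call of Ephb3 was lost in 5 of 26 alternatives, among them only the groups compared, with a limma adjusted p of up to 0.0755. Epha8 was at 0.29, 0.04, 0.48 and 0.90 in siControl CB, 1.38, 0.73, 1.80 and 1.90 in siAPC CB, 0.22, 0.03, 0.75 and 0.60 in siControl Ps and 0.70, 0.89, 1.83 and 1.90 in siAPC Ps. It rose by 1.02 in CB (SE 0.31, limma adjusted p = 0.0315) and by 0.93 in Ps (SE 0.31, limma adjusted p = 0.0357) with overlapping groups, on 12 to 34 reads in siControl, and the calls were lost in 6 and 8 of 25 alternatives. The remaining EphA and EphB receptors were not called, with log2 fold changes of 0.03 in CB and 0.16 in Ps for Ephb4, 0.05 and 0.26 for Epha4, and -0.48 and -0.19 for Epha2.

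On chromosome 3 the A-type ephrins Efna1 (89271733 to 89281142), Efna3 (89313899 to 89322965) and Efna4 (89333390 to 89338028) lie side by side, all on the - strand. Efna1 was at 5.50, 5.36, 5.43 and 5.40 in siAPC CB and at 4.64, 4.71, 4.37 and 4.34 in siAPC Ps, and rose in Ps without overlap (0.60, SE 0.12, limma adjusted p = 0.000903), with 0.29 (SE 0.12, limma adjusted p = 0.11) in CB. Efna4 was at 3.97, 3.99, 4.21 and 4.27 in siAPC CB and 3.59, 3.62, 3.57 and 3.91 in siAPC Ps, and rose in Ps (0.45, SE 0.11, limma adjusted p = 0.00544), with 0.33 (SE 0.11, limma adjusted p = 0.054) in CB. Efna3, at 4.02, 4.02, 3.95 and 4.02 in siAPC CB and 3.98, 3.76, 3.76 and 3.87 in siAPC Ps, rose in CB (0.31, SE 0.10, limma adjusted p = 0.0437), with 0.26 (SE 0.10, limma adjusted p = 0.0722) in Ps. Efna3 and Efna4 had separate siRNA groups in both fractions, and the log2 fold changes of the 3 neighbours ran from 0.26 to 0.60 over both fractions. The CB call of Efna3 was lost in 12 of 26 alternatives, and its Ps value passed with replicate number as a block (limma adjusted p = 0.048). Efna5, on chromosome 17, gave 0.16 (SE 0.17) in each fraction. Of the B-type ephrins, Efnb1 was at 4.16, 4.06, 4.24 and 4.43 in siAPC CB and 3.07, 2.59, 3.25 and 3.30 in siAPC Ps and rose in Ps (0.53, SE 0.16, limma adjusted p = 0.0256), with overlapping groups. This call was lost in 6 of 26 alternatives, among them quantile normalization and only the groups compared. Efnb3 gave 0.49 (SE 0.35) in CB and 0.14 in Ps. Efnb2 went the other way in CB, with -0.33 (SE 0.12, limma adjusted p = 0.088). It passed there after the loess (-0.39, limma adjusted p = 0.0233) and without the trend in eBayes (limma adjusted p = 0.0407). In Ps Efnb2 gave 0.18, which passed with scaling to total listed reads (0.35, limma adjusted p = 0.0497).

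Plexins changed in both directions. Plxna3 was at 5.37, 5.31, 5.44 and 5.31 in siAPC CB and at 3.89, 3.61, 3.76 and 3.71 in siAPC Ps, below every siControl library of its fraction. It fell by 0.29 in CB (SE 0.08, limma adjusted p = 0.0183) and by 0.34 in Ps (SE 0.08, limma adjusted p = 0.00398), where scaling to total listed reads gave -0.18 (limma adjusted p = 0.111). Plxna2 was at 4.71, 4.79, 5.37 and 5.24 in siControl CB and 4.62, 4.69, 4.77 and 4.72 in siAPC CB, and in Ps at 3.83, 4.25, 4.80 and 4.59 in siControl and 3.65, 3.82, 3.93 and 3.84 in siAPC. The spread was mostly in siControl, and the fall by 0.56 in Ps (SE 0.17, limma adjusted p = 0.0212) had overlapping groups and gave -0.39 (limma adjusted p = 0.158) with scaling to total listed reads. Plxnb2 was at 9.54, 9.46, 9.60 and 9.47 in siAPC CB and 8.37, 8.14, 8.35 and 8.37 in siAPC Ps and rose in Ps by 0.29 (SE 0.08, limma adjusted p = 0.0138), with 0.23 (SE 0.08, limma adjusted p = 0.0647) in CB. Plxnb1 was called in Ps (1.06, SE 0.37, limma adjusted p = 0.0456) on 1 to 4 reads in siControl and 5 or 6 reads in siAPC, at -3.05, -3.03, -2.60 and -1.66 against -1.27, -1.44, -1.79 and -1.58. At these counts the call was lost with the replicate block (limma adjusted p = 0.075) and in 17 of 25 alternatives in all. Plxna1, Plxnd1 and Plxnb3 were not called, with 0.10, 0.12 and 0.97 in CB.

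Of the semaphorins, Sema3g was called in CB and Sema4c in Ps. Sema3g was at -1.61, -1.63, -1.15 and -1.75 in siControl CB and 0.49, 0.78, -0.42 and -0.18 in siAPC CB, from 5 to 10 reads to 14 to 33 reads, a rise by 1.70 (SE 0.38, limma adjusted p = 0.00442) without overlap. In Ps its value was 0.77 (SE 0.38, limma adjusted p = 0.161), at -2.32, -1.80, -0.84 and -2.51 against -1.06, -0.81, -1.16 and -1.34. Sema4c was at 5.29, 5.15, 5.31 and 5.18 in siAPC CB and 3.93, 3.71, 3.85 and 3.93 in siAPC Ps, and rose in Ps by 0.46 (SE 0.10, limma adjusted p = 0.00173) without overlap. The other 11 semaphorins were not called in either fraction, with log2 fold changes from -0.49 for Sema3a to 0.31 for Sema4d in CB and from -0.46 for Sema4d to 1.07 for Sema5b in Ps. With replicate number as a block Sema5a (0.47, limma adjusted p = 0.0381) and Unc5b (0.37, limma adjusted p = 0.0206) also passed in Ps. Sema3c, with separate groups in Ps and 0.54 (SE 0.22, limma adjusted p = 0.0879), passed in Ps under 5 alternatives, with limma adjusted p = 0.00985 after the loess and limma adjusted p = 0.0474 with scaling to total listed reads at the ends of that range. Without the block Unc5b was at 5.75, 5.55, 5.84 and 5.66 in siAPC CB, above all siControl CB libraries, with 0.33 (SE 0.19, limma adjusted p = 0.289). Ntn1, Ntn3 and Unc5c were not called, with 0.04, 0.01 and 1.04 in CB.

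Lists of other genes set these counts in context. A list of 50 genes was chosen by the symbols of receptor tyrosine kinases, integrins and cadherins. These symbols also took in the integrin-binding proteins Itgb1bp1, Itgb1bp2 and Itgb3bp, as well as Itgbl1 and Igf2r, which belong to none of these families. Met was both in this list and among the partners below. The list had 31 genes (62.0%) lower and 4 (8.0%) higher in Ps of control cells, against 31.2% and 29.1% of all genes, with a median of -0.70. After the loess for GC content and length 27 (54.0%) were lower and 7 (14.0%) higher, against 26.0% and 28.9%, with a median of -0.36. In siAPC against siControl 15 of these 50 (30.0%) rose and 4 (8.0%) fell in CB, against 7.52% and 5.87% of all genes. In Ps 21 (42.0%) rose and 5 (10.0%) fell, against 10.7% and 11.2%. Low Ps/CB values and rises with siAPC were thus found in this list too, and whether the members differ from it was not tested. Of 71 partners of the pathways, 61 were listed, and in control cells 18 (29.5%) were higher and 20 (32.8%) lower in Ps, near the 29.1% and 31.2% of all genes, with a median of -0.10. This nearness depended on the processing. After the loess for GC content and length 30 (49.2%) were higher and 8 (13.1%) lower, against 28.9% and 26.0% of all genes. With scaling to total listed reads 8 (13.1%) were higher and 34 (55.7%) lower, against 15.4% and 47.6%. Without these alternatives, the highest called partners were the myosin-activating kinases Rock1 at 1.05 (SE 0.33, limma adjusted p = 0.00938) and Rock2 at 0.77 (SE 0.15, limma adjusted p = 0.000265). The lowest were the neogenin ligand Rgmb at -1.20 (SE 0.09, limma adjusted p = 2.83e-09) and the adaptor Crkl at -1.13 (SE 0.14, limma adjusted p = 9.11e-07). In siAPC cells 21 partners (34.4%) were higher and 24 (39.3%) lower in Ps, against 29.8% and 30.9% of all genes. They were led by Rock1 at 1.49 and the Src-family kinase Yes1 at 1.26, and by Crkl at -1.32 and Rgmb at -1.07. After the loess 24 (39.3%) were higher and 8 (13.1%) lower, against 25.7% and 25.0% of all genes. With scaling to total listed reads 14 (23.0%) were higher and 28 (45.9%) lower, against 21.5% and 39.3%. By log2(Diff FC) limma called 0 partners and 0 of the 50 surface genes.

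In siAPC against siControl 8 partners (13.1%) rose and 3 (4.92%) fell in CB, against 7.52% and 5.87% of all genes, and 8 (13.1%) rose and 5 (8.2%) fell in Ps, against 10.7% and 11.2%. These shares were not tested against those of all genes. Ngef, an exchange factor that acts downstream of EphA receptors, fell by 0.77 in CB (SE 0.17, limma adjusted p = 0.00464) and by 0.92 in Ps (SE 0.17, limma adjusted p = 0.000646). Tiam1, a Rac exchange factor, rose by 0.55 in CB (SE 0.10, limma adjusted p = 0.0006) and by 0.62 in Ps (SE 0.10, limma adjusted p = 0.000115). Mical1, a redox enzyme that takes actin apart downstream of plexins, rose by 0.64 in CB, and Rnd3, a small GTPase, rose by 0.78 in Ps. The actin-binding protein Ablim1 fell by 0.37 in CB and Rras, a substrate of the GTPase-activating domain of plexins, fell by 0.49 in Ps.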

How the data were processed

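The authors aligned paired reads to mm10 with STAR 2.4.2a, counted them per gene with Rsubread and deposited log2 CPM values from limma-voom (limma 3.26.1), 1 column per library. These log2 values are log2 of reads plus 0.5 over an effective library size. Inverting them gave whole reads for 100% of 208240 values (within 0.01 read), which supplied read numbers and depths. The reads carry no molecular identifiers, so floors cover counting error only. Groups came from the labels for fraction and siRNA. The study calls the 4 replicates of each fraction independent, without saying in what (separate cultures or days), so p-values measure the spread between these samples.

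Limma 3.58.1 (R 4.3.3, lmFit and eBayes with an intensity trend) was fitted to all 13015 genes and 16 libraries with a mean for each group and without a block, and p-values were Benjamini-Hochberg adjusted over 13015 genes, with calls below 0.05. The script was tested on simulated data. Members were genes whose symbols matched the family names. The members and all lists were chosen with earlier results of these data known. Every member is named. Full values are given for members called in a siAPC contrast or the interaction, for the 5 highest and 5 lowest called Ps/CB values in siControl at a mean log2 CPM of at least 1, and for the highest member per length of each family. The 3 genes higher in Ps of siAPC and Efnb2 were added after their values were seen, and of the partners the 2 highest and 2 lowest called in each contrast are named. Positions and exon lengths are from GENCODE M21 (GRCm38), not the release the authors counted with, and 12872 genes (98.9%) matched by symbol. Protein sequences were not used here.

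Pairing by replicate number was checked by correlating deviations from group means across 10292 genes. Same-numbered libraries correlated at 0.416 to 0.617 between siAPC CB and Ps and at 0.162 to 0.551 between siControl Ps and siAPC Ps, so a blocked value stands beside a call it changes there. The labels give the numbers and do not say what they share. Alternatives were the replicate block, eBayes without trend, a mean log2 CPM filter, scaling to total listed reads, quantile normalization, voom weights, a larger pseudocount, only the groups compared, leaving out libraries, and a loess on GC content and length.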

Additional observations from a re-analysis of the deposited data

Results flagged for a closer look

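In 12 of 164 groups of 4 libraries, 1 library of a member stood far from the other 3 by Dixon's criterion, and chance alone gives about 1 in 20 groups. All values are log2 CPM. Replicate 2 of siAPC CB was high for Sema3c (5.41, others 4.89 to 4.98), and replicate 3 of that group was high for Sema5b (-0.42, others -1.35 to -1.20) and low for Efna3 (3.95, others at 4.02). In siAPC Ps, replicate 2 was high for Sema5a (3.20, others 3.02 to 3.05) and low for Plxnb2 (8.14, others 8.35 to 8.37), replicate 3 was low for Sema4d (-2.44, from 3 reads, others -0.88 to -0.65) and replicate 4 was high for Efna4 (3.91, others 3.57 to 3.62). In siControl CB, replicate 3 was low for Sema6c (3.81, others 4.02 to 4.06), and replicate 4 was high for Ephb2 (5.23, others 5.03 to 5.06) and low for Ntn1 (0.62, others 1.18 to 1.29). In siControl Ps, replicate 2 was low for Efna3 (3.25, others 3.68 to 3.71) and for Efnb1 (2.02, others 2.67 to 2.71). Of these 12, 6 were in the 4 libraries with a negative GC trend.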

How the results depend on the processing

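The counts of members lower in Ps, 29 in siControl and 30 in siAPC, stayed within 1.5 times of these values under every alternative run, down to 21 and 21 with the loess for GC content and length, and the counts for log2(Diff FC) stayed at 0. Other counts moved. With scaling to total listed reads, 0 members were higher in Ps of siAPC (21.5% of all genes) and 25 were CB-enriched in siControl (14.7% of all genes). With this scaling, in siAPC against siControl, 1 fell in CB (5.12% of all genes), 19 rose in Ps (22.6%) and 0 fell in Ps (4.23%). After the loess, 1 member was higher in Ps in siControl (28.9% of all genes) and 1 in siAPC (25.7% of all genes). In CB 5 members (12.2%) fell with siAPC, below the 14.3% of all genes. As CB-enriched there were 3 in siControl (4.23% of all genes) and 2 in siAPC (2.91% of all genes), and Plxnd1 had a Ps/CB log2 fold change of 0.01 with each siRNA. The cause was not tested. Without the 4 libraries with a negative GC trend, 3 members were higher in Ps in siControl (30.7% of all genes), 1 was Ps-enriched in siAPC (7.18%) and 1 fell in CB with siAPC (8.51%). Without the trend in eBayes 1 was higher in Ps in siAPC. With voom weights, and with only the groups compared, 1 was Ps-enriched in siAPC. A fold change of 1.5 in the rule gave 27 CB-enriched members in siControl (18.5% of all genes), and 26 CB-enriched (16.4% of all genes) and 1 Ps-enriched in siAPC.

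Leaving out each library in turn gave 0 to 3 members higher and 27 to 29 lower in Ps in siControl, 0 to 4 and 27 to 31 in siAPC, 4 to 8 rising and 0 to 2 falling in CB with siAPC, 8 to 13 rising and 1 to 3 falling in Ps with siAPC, 14 to 17 CB-enriched in siControl and 15 to 17 in siAPC, and 0 to 1 Ps-enriched with each siRNA. Both falls in CB, Nrp2 and Plxna3, were lost without siAPC CB replicate 2 or 4 or siControl CB replicate 4. In Ps, the falls of Plxna2 and Nrp2 were both lost without siControl Ps replicate 3 or 4, and the rises of Epha8, Ephb3 and Efnb1 without siAPC Ps replicate 3 or 4 or siControl Ps replicate 2.

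With replicate number as a block, 31 members were lower in Ps in siControl (32.5% of all genes) and 31 in siAPC (32.1% of all genes). With this block 8 rose and 2 fell in CB with siAPC, against 8.43% and 7.36% of all genes. In Ps 14 rose and 3 fell, against 11.9% and 13.5% of all genes, and 0 passed for log2(Diff FC). The numbers did not pair the libraries between siControl CB and Ps (correlations of -0.121 to 0.432) or between the CB groups (-0.336 to 0.269), where the block ended the call of Nrp1 in CB (limma adjusted p = 0.0502) and gained Sema7a and Epha2 in Ps of siControl and Efna1 and Plxnb2 in CB. In Ps of siAPC it gained Ntn1 and Sema5a and ended the call of Efnb2. Depth limits Unc5c, Plxnb1, Plxnb3, Sema3g, Sema4d, Sema5b and Efnb3, each with at most 3 reads in some library.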
